A study of Mus musculus with 6 samples.

Results

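Transfer RNA synthetases load each transfer RNA (tRNA) with its amino acid, the step that ties the genetic code to protein. Cytosolic enzymes serve the ribosomes of the cytosol, and a separate set, encoded in the nucleus and mostly named with a final 2, serves the ribosomes inside mitochondria. A shortage of amino acids, or of charged tRNA, is read by the kinase GCN2 (Eif2ak4), and the transcription factor ATF4 then raises amino acid transporters, biosynthetic enzymes and many cytosolic synthetases in mammalian cells, a program known as the integrated stress response.

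The genes were chosen by their description in the deposited table, which had to contain "tRNA synthetase" for a protein-coding gene, and 42 of 55385 genes met this rule. One further gene with such a description, the pseudogene Kars-ps1, is not protein-coding and was left out. Of the 42, 19 encode cytosolic synthetases or their subunits, 17 encode mitochondrial synthetases, and 2 (Gars for glycine and Kars for lysine) supply both compartments from 1 gene. The other 4 are not synthetases: Aimp1 and Aimp2 are scaffold proteins of the cytosolic multi-synthetase complex, and Aarsd1 and Prorsd1 resemble the editing domains of the alanine and proline enzymes.

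The data are polyadenylated RNA from livers of 6-week-old C57BL/6 mice, 6 animals in 3 groups of 2. The Optn-/- group (replicates 4 and 5) lacks optineurin, an autophagy receptor in the clearance of damaged mitochondria, and received acetaminophen at 500 mg per kg. A wild-type group (replicates 1 and 4) received the same dose, which injures hepatocytes through a reactive metabolite, and a wild-type control group (replicates 3 and 6) was given 200 µL of saline buffered with phosphate (PBS) by intraperitoneal injection. Every liver was taken at 6 h, no Optn-/- mouse without acetaminophen was analysed here, and the sources used here do not say how the Optn allele was made. The labels' protocol speaks of adipose RNA although each tissue label is liver.

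Total counts lay between 59143418 and 77292216 per library, and Optn fell to 0.316 and 0.457 FPKM in Optn-/- livers, against 9.17 and 9.19 FPKM in wild-type acetaminophen livers and 20.95 and 18.7 FPKM in PBS livers. The 10 hepatocyte markers summed to 109793 to 150969 CPM (counts scaled to the library's total) in every library, and 5 adipocyte markers to at most 3.60 CPM. Traces of other tissues divided the libraries. Markers of skeletal muscle summed to 0.976 and 1.01 CPM in Optn-/- livers, 67.1 and 77.6 CPM in wild-type acetaminophen livers, and 102 and 0.580 CPM in PBS replicates 3 and 6. Of 12 intestinal markers, none was at 0 counts in Optn-/- livers or PBS replicate 6, and 7 or 8 were at 0 in the other 3 libraries. Each treated group therefore lies within 1 set of libraries, and only the controls hold 1 library of each. Neuronal and glial markers summed to 139 and 66.4 CPM in wild-type acetaminophen replicate 4, against at most 14.4 and 7.03 CPM in the other libraries. Neutrophil markers summed to 151 and 193 CPM in Optn-/- livers, 146 and 70.3 CPM in wild-type acetaminophen livers, and 2.50 and 6.53 CPM in PBS livers. The part of any of these in the results was not tested, and in bulk tissue fewer cells of a type and less RNA per cell cannot be told apart.

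Levels are given as FPKM (fragments counted on a gene, divided by its length and by the library's total). Levels and ratios between genes depend on the lengths used, and how well these suit the transcripts present was not tested. The cytosolic genes were the more abundant class, with a median of the group means of 6.79 FPKM in Optn-/- livers, 7.28 FPKM in wild-type acetaminophen livers and 5.72 FPKM in PBS livers. The mitochondrial medians were 1.32 FPKM in Optn-/- livers, 1.53 FPKM in wild-type acetaminophen livers and 2.73 FPKM in PBS livers. Aars, the alanine enzyme, stood highest by PBS level, with 22.0 and 19.7 FPKM in Optn-/- livers, 20.8 and 28.4 FPKM in wild-type acetaminophen livers and 28.4 and 26.1 FPKM in PBS livers. Nars, for asparagine, came next by PBS level, with 17.0 and 18.5 FPKM in Optn-/- livers, 15.9 and 20.2 FPKM in wild-type acetaminophen livers and 14.6 and 17.7 FPKM in PBS livers. Mars, for methionine, had 14.7 and 13.2 FPKM in Optn-/- livers, 12.1 and 13.2 FPKM in wild-type acetaminophen livers, and 12.9 and 15.5 FPKM in PBS livers. For Nars and Mars each acetaminophen group overlapped the PBS livers in FPKM, and the PBS levels of both genes overlapped too. In the scaled counts used for testing below, both acetaminophen groups of Nars lay above the PBS livers. Its log2 fold changes of 0.32 in Optn-/- livers and 0.37 in wild-type acetaminophen livers did not pass the test.

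The lowest PBS levels belonged to mitochondrial genes. Mars2, the mitochondrial methionine enzyme, had 0.200 and 0.259 FPKM in Optn-/- livers, 0.158 and 0.220 FPKM in wild-type acetaminophen livers and 0.247 and 0.230 FPKM in PBS livers. Its mean was below the minimum of 0.5 FPKM set for testing, so 41 of the 42 genes were tested. Wars2, for tryptophan, had 0.573 and 0.591 FPKM in Optn-/- livers, 0.561 and 0.493 FPKM in wild-type acetaminophen livers, and 0.505 and 0.710 FPKM in PBS livers, and each acetaminophen group overlapped the PBS livers.

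**Figure D1:**
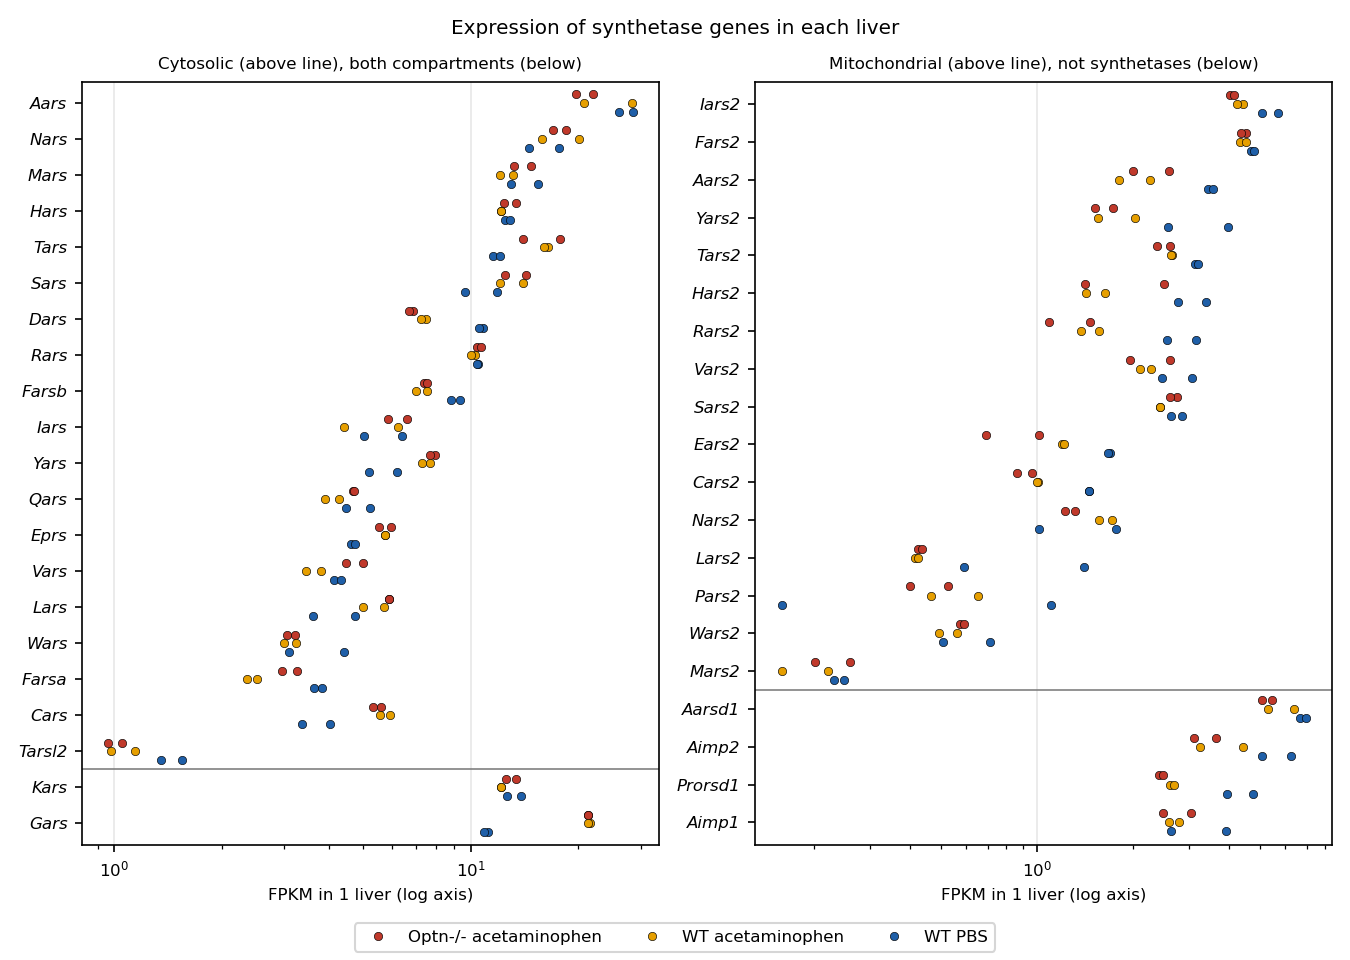
Level of 41 of the 42 genes in each liver, in FPKM on a log axis, ordered within classes by the mean of the PBS livers; each point is 1 liver, with Optn-/- acetaminophen, wild-type acetaminophen and PBS livers from top to bottom within a gene. Both acetaminophen groups of Gars sit near 21 FPKM and its PBS livers near 11 FPKM, while points of many mitochondrial genes lie left of their PBS points.

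The first comparison set acetaminophen against PBS in wild-type mice. Gars rose most and cytosolic members for cysteine, threonine, tyrosine, and glutamate with proline rose with it, while no mitochondrial gene rose or fell past the threshold. By edgeR's quasi-likelihood test with Benjamini-Hochberg adjustment over all 11677 genes tested, 5 of 41 genes rose, beside 8.36% of all genes. In the other direction 0 fell, beside 5.92% of all genes. Both counts lie near those shares, and 0 falls among 16 mitochondrial genes is near its share too. At an unadjusted p under 0.05, 7 were higher and 8 lower, beside 32.3% of all genes in either direction. DESeq2 called 7 higher and 4 lower, beside 14.4% and 12.2% of all genes. The limma fit called 2 higher and 6 lower, beside 5.96% and 12.8%. The median log2 fold change was 0.10 over the cytosolic genes and -0.19 over the mitochondrial genes, beside 0.03 over all genes tested. Among the cytosolic genes 12 of 19 fold changes were above 0, and among the mitochondrial genes 11 of 16 were below 0.

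Gars attaches glycine in the cytosol and in mitochondria from 1 gene on chromosome 6 (55038007 to 55079500, plus strand, GRCm38). It had 21.3 and 21.4 FPKM in Optn-/- livers, 21.7 and 21.4 FPKM in wild-type acetaminophen livers, and 11.2 and 10.9 FPKM in PBS livers. The 4 acetaminophen livers lay close together and well above both PBS livers. In wild type the log2 fold change was 1.17 ± 0.115 (SE, n = 2 per group, edgeR adjusted p = 0.00446). It stayed past the threshold when any 1 library was left out (adjusted p of 0.016 to 0.0343) and in all 16 alternative fits of this comparison, these included.

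Cars attaches cysteine in the cytosol. It had 5.61 and 5.32 FPKM in Optn-/- livers, 5.57 and 5.94 FPKM in wild-type acetaminophen livers, and 3.37 and 4.03 FPKM in PBS livers, with no overlap between treated and PBS livers. Its log2 fold change in wild type was 0.85 ± 0.136 (SE, edgeR adjusted p = 0.0156). The call was lost without PBS replicate 3 (adjusted p = 0.0825), wild-type acetaminophen replicate 1 (0.0547) or wild-type acetaminophen replicate 4 (0.0561).

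Tars, the cytosolic threonine enzyme, had 14.0 and 17.8 FPKM in Optn-/- livers, 16.5 and 16.1 FPKM in wild-type acetaminophen livers, and 11.6 and 12.1 FPKM in PBS livers. Yars, the cytosolic tyrosine enzyme, had 7.93 and 7.69 FPKM in Optn-/- livers, 7.32 and 7.68 FPKM in wild-type acetaminophen livers, and 5.19 and 6.21 FPKM in PBS livers. Eprs, which joins the glutamate and proline enzymes in 1 protein of the multi-synthetase complex, had 5.54 and 5.98 FPKM in Optn-/- livers, 5.76 and 5.73 FPKM in wild-type acetaminophen livers, and 4.61 and 4.74 FPKM in PBS livers. For all 3 genes every acetaminophen liver lay above both PBS livers. In wild type the log2 fold change was 0.67 ± 0.142 for Tars (SE, edgeR adjusted p = 0.0317), 0.61 ± 0.132 for Yars (0.0345) and 0.51 ± 0.112 for Eprs (0.0353). Leaving out any 1 library ended the call for Yars (adjusted p of 0.0576 to 0.16) and Eprs (0.0508 to 0.163). Tars lost it without either PBS library or either wild-type acetaminophen library, and its adjusted p reached 0.145.

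These 3 calls also depended on scaling. TMM scaling takes most genes as level between groups, and scaling by total counts instead moved the median of all genes by -0.22 (log2) in this comparison. Under total-count scaling 2 genes rose, Cars and Gars, beside 6.2% of all genes, and 4 fell, beside 12.8%, among them Dars (cytosolic aspartate), Farsa (a subunit of the cytosolic phenylalanine enzyme) and Aars2 (mitochondrial alanine). The cytosolic median then turned to -0.11 while the mitochondrial one was -0.42. FPKM values are scaled by total counts too, so a difference in FPKM between treated and PBS livers lies lower by about that shift. With library set included in the fit, which leaves fewer degrees of freedom, 2 genes rose, Gars (edgeR adjusted p = 0.0287) and Cars (0.0426), beside 4.9% of all genes, and 0 fell, beside 2.06%.

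The letters TGATGNAA spell the C/EBP-ATF response element, which dimers of ATF4 and C/EBP proteins bind. RefSeq promoter windows (250 bases before to 50 after the start of a gene, GRCm38.p6) were matched for 31 of the 42 genes. The letters stood on either strand in 5 of the 31, or 16.13%, beside 4.511% of 27025 genes with a window. The 5 were Gars, Tars and Yars, which rose, and Aars and Iars (cytosolic isoleucine), which did not pass the test. Eprs and Cars rose too, but the window of Eprs lacked these letters and Cars had no matched window. They stood in 4 of 11 cytosolic genes and in 0 of 14 mitochondrial genes, and no match says only that these letters are not in this window. The E-box CACGTG stood in 5 of 31, beside 8.093% of all genes, and it overlapped no TGATGNAA. Cars, Hars, Lars, Mars, Nars, Rars, Vars, Wars, Hars2 and Pars2 were among those with no entry.

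A stretch around the element upstream of the start is shown for 3 genes, because Gars and Tars rose and Aars, with the same letters, did not. They run 5′ to 3′ on the strand of the gene, and the capitals mark TGATGNAA, read here on the opposite strand. The elements begin 30, 112 and 15 bases before the RefSeq start of Gars (chr6:55037945-55038000, plus strand), Aars (chr8:111033704-111033763, plus strand) and Tars (chr15:11399659-11399699, minus strand).
Gars: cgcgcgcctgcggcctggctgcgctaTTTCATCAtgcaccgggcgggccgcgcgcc
Aars: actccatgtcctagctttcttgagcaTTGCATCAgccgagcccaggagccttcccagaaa
Tars: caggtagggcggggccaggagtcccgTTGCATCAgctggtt
A match of letters is a description of the sequence, and no binding was measured.

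Other cytosolic genes moved less than the test could call. For Aars, the most abundant in PBS livers, the edgeR estimate was 0.06 ± 0.174 (log2, SE, adjusted p = 0.855). For Mars it was 0.04 ± 0.142 (SE, adjusted p = 0.884). Mars shares 68 bases with Ddit3, a stress gene on the opposite strand whose counts were 11841 and 6197 in Optn-/- livers, 9872 and 11043 in wild-type acetaminophen livers and 399 and 604 in PBS livers. The sources used here do not say whether counting used strand, so reads of the 2 genes cannot be told apart there.

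Among mitochondrial genes the largest drops in the wild-type comparison were those of Lars2 (leucine), Hars2 (histidine) and Rars2 (arginine), none past the threshold. Lars2 had 0.424 and 0.435 FPKM in Optn-/- livers, 0.414 and 0.422 FPKM in wild-type acetaminophen livers, and 0.588 and 1.40 FPKM in PBS replicates 3 and 6. The treated livers were nearly level and the PBS libraries lay far from each other. Its log2 fold change was -1.03 ± 0.395 (SE, edgeR adjusted p = 0.138), -1.51 without PBS replicate 3 (0.0384) and -0.29 without PBS replicate 6 (0.556).

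Hars2 had 1.41 and 2.50 FPKM in Optn-/- livers, 1.64 and 1.42 FPKM in wild-type acetaminophen livers, and 2.76 and 3.38 FPKM in PBS livers (log2 fold change in wild type -0.79 ± 0.293, SE, edgeR adjusted p = 0.129). Hars2 and the cytosolic gene Hars lie head to head on chromosome 18 and share 198 bases. Hars had 12.4 and 13.4 FPKM in Optn-/- livers, 12.2 and 12.2 FPKM in wild-type acetaminophen livers, and 12.5 and 12.9 FPKM in PBS livers. In FPKM Optn-/- and PBS livers of Hars overlapped, and wild-type acetaminophen livers lay slightly below both. In scaled counts both treated groups of Hars lay above the PBS livers. Its log2 fold change was 0.21 ± 0.11 (SE) in Optn-/- livers and 0.15 ± 0.11 in wild-type acetaminophen livers, neither past the threshold. Rars2 had 1.09 and 1.47 FPKM in Optn-/- livers, 1.37 and 1.57 FPKM in wild-type acetaminophen livers, and 3.16 and 2.55 FPKM in PBS livers. Its wild-type log2 fold change was -0.74 ± 0.249 (SE, edgeR adjusted p = 0.102), while its cytosolic counterpart Rars stayed between 10.0 and 10.7 FPKM in the 6 livers. In scaled counts both treated groups of Rars lay above the PBS livers. The log2 fold change of Rars was 0.20 ± 0.11 (SE) in Optn-/- livers and 0.17 ± 0.11 in wild-type acetaminophen livers, neither past the threshold.

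The second comparison set Optn-/- mice given acetaminophen against the same PBS controls, so genotype and treatment both differ and the 2 comparisons share their control livers. By the same edgeR test 6 of 41 genes rose, beside 12.2% of all genes, and 2 fell, beside 8.05% of all genes. Both counts lie near those shares. Gars rose by 1.13 ± 0.115 (log2, SE, edgeR adjusted p = 0.00358), and leaving out any 1 library kept it past the threshold (0.0077 to 0.0262). Cars rose by 0.74 ± 0.135 (0.0166), a call lost without PBS replicate 3 (0.0892), Optn-/- replicate 4 (0.0637) or Optn-/- replicate 5 (0.0634). Tars (0.61 ± 0.141, adjusted p = 0.0333), Yars (0.64 ± 0.132, 0.0237) and Eprs (0.48 ± 0.112, 0.0329) rose as well.

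Lars, the cytosolic leucine enzyme, which also acts as a leucine sensor upstream of the growth kinase mTORC1, was the sixth gene that rose. It had 5.88 and 5.89 FPKM in Optn-/- livers, 4.99 and 5.69 FPKM in wild-type acetaminophen livers, and 3.62 and 4.73 FPKM in PBS livers. The log2 fold change was 0.68 ± 0.159 in Optn-/- livers against PBS (SE, edgeR adjusted p = 0.0336) and 0.57 ± 0.158 in wild-type acetaminophen livers against PBS (0.0676). Whether these differ was tested by the comparison of the 2 treated groups, in which Lars differed by 0.11 ± 0.158 (0.874).

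Dars, the cytosolic aspartate enzyme, and Rars2 fell in Optn-/- livers against PBS. Dars had 6.87 and 6.71 FPKM in Optn-/- livers, 7.48 and 7.24 FPKM in wild-type acetaminophen livers, and 10.8 and 10.5 FPKM in PBS livers, with no overlap. Its log2 fold change was -0.47 ± 0.119 (SE, edgeR adjusted p = 0.0423), and that of Rars2 was -0.98 ± 0.251 (0.0433). Leaving out any 1 library ended both calls (adjusted p of 0.0603 to 0.176 for Dars and 0.0583 to 0.197 for Rars2). Without any 1 library, Eprs also lost its call (0.053 to 0.158). Tars kept it in 1 of 6 such fits, and Yars and Lars in 2 of 6 each, with adjusted p up to 0.151, 0.125 and 0.141. With library set in the fit 1 gene rose, Gars (edgeR adjusted p = 0.0261), beside 5.74% of all genes, and 1 fell, Lars2 (0.0285), beside 2.48%, so the calls of Cars (0.0907), Tars (0.148), Yars (0.124), Eprs (0.153), Lars (0.145), Dars (0.179) and Rars2 (0.176) were lost. That fit in effect takes PBS replicate 6 alone as control, where Lars2 had 1.40 FPKM, against 0.588 FPKM in PBS replicate 3. Under total-count scaling 2 rose and 7 fell, beside 9.74% and 15.1% of all genes. DESeq2 called 7 higher and 7 lower, beside 17% and 14% of all genes, and limma 2 higher and 5 lower, beside 9.87% and 15.8%.

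Over the classes, the median log2 fold change in Optn-/- livers against PBS was 0.21 for the cytosolic genes and -0.34 for the mitochondrial genes, beside -0.0018 for all genes. In scaled counts, 12 of 19 cytosolic genes were higher in both Optn-/- livers than in both PBS livers and 5 were lower, beside 33.7% and 32.7% of all genes. Of 16 mitochondrial genes 2 were higher and 10 lower. In wild type the counts without overlap were 9 higher and 4 lower of 19, and 2 higher and 9 lower of 16, beside 32.7% and 30.2% of all genes.

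Yars2, the mitochondrial tyrosine enzyme, was among the 3 largest drops in Optn-/- livers, with 1.52 and 1.73 FPKM, against 3.98 and 2.57 FPKM in PBS livers (log2 fold change -0.83 ± 0.276, SE, edgeR adjusted p = 0.0879). Wild-type acetaminophen livers had 1.56 and 2.03 FPKM, so every treated liver lay below both PBS livers. Cars2, for cysteine, had 0.862 and 0.966 FPKM in Optn-/- livers, 1.01 and 0.996 FPKM in wild-type acetaminophen livers, and 1.45 and 1.46 FPKM in PBS livers. Tars2, for threonine, had 2.38 and 2.61 FPKM in Optn-/- livers, 2.64 and 2.63 FPKM in wild-type acetaminophen livers, and 3.14 and 3.19 FPKM in PBS livers. For these mitochondrial counterparts of called cytosolic genes the treated and PBS livers did not overlap in FPKM, and no fold change passed the threshold in either comparison.

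The 4 members that are not synthetases had fold changes below 0 in both comparisons, and none passed the threshold. Aimp2 had 3.65 and 3.11 FPKM in Optn-/- livers, 3.25 and 4.43 FPKM in wild-type acetaminophen livers, and 6.27 and 5.09 FPKM in PBS livers. It shares 26.6% of its 50-base words with Eif2ak1, which overlaps it on the opposite strand. Kars, the lysine enzyme of both compartments, had 12.6 and 13.4 FPKM in Optn-/- livers, 12.1 and 12.2 FPKM in wild-type acetaminophen livers, and 12.6 and 13.8 FPKM in PBS livers. Its log2 fold change against PBS was 0.16 ± 0.115 (SE) in Optn-/- livers and 0.09 ± 0.115 in wild-type acetaminophen livers.

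**Figure D2:**
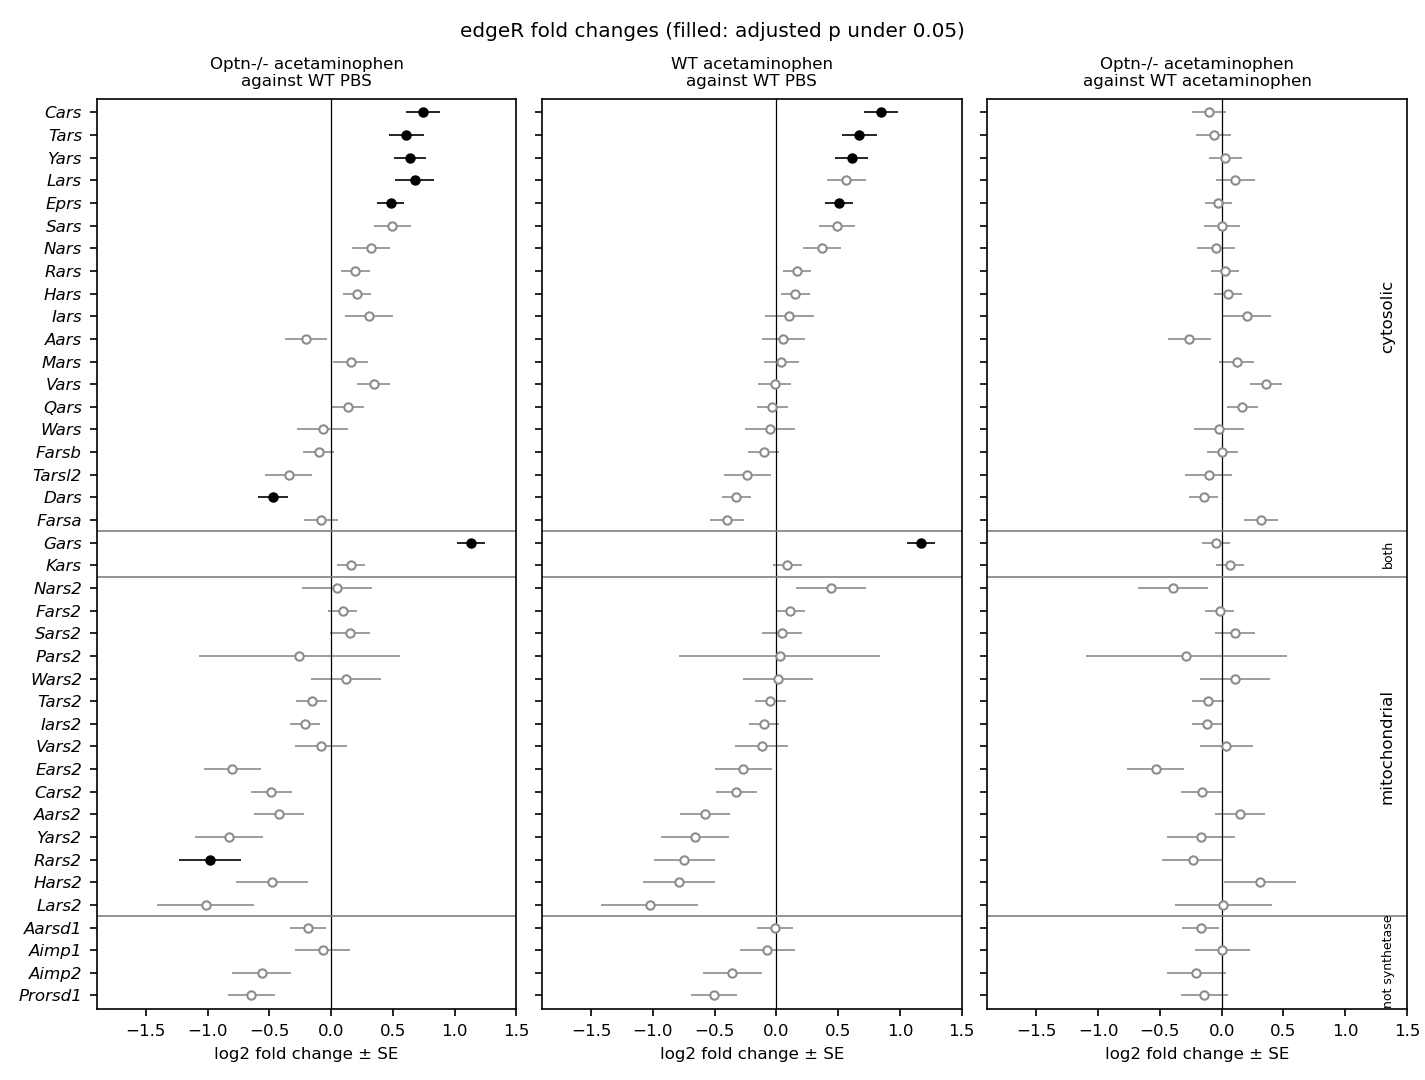
edgeR log2 fold change of tested genes with its SE (horizontal bars), for Optn-/- acetaminophen against PBS, wild-type acetaminophen against PBS, and Optn-/- acetaminophen against wild-type acetaminophen, from left to right; filled points have an adjusted p under 0.05 and lines divide the classes. Gars lies at 1.13 and 1.17 in the 2 panels against PBS, most mitochondrial genes lie left of 0 there, and no point is filled in the right panel.

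Setting the 2 compartments against each other within a library removes the scaling. For 13 amino acids 1 gene serves each compartment. The median ratio of cytosolic to mitochondrial FPKM was 6.51 and 5.47 in Optn-/- livers, 6.17 and 6.39 in wild-type acetaminophen livers, and 4.51 and 4.09 in PBS livers. For 7 of 13 amino acids the ratio in all 4 acetaminophen livers was above that in both PBS livers, and for 0 it was below. The share of other gene pairs that separate in this way was not computed. Among single genes in scaled counts, 33.7% of all genes lay higher and 32.7% lower without overlap in Optn-/- livers against PBS. In wild-type acetaminophen livers against PBS these shares were 32.7% and 30.2%. Mean log2 ratios were above PBS for 12 of 13 amino acids in Optn-/- livers and 11 of 13 in wild-type acetaminophen livers. The smallest p of a two-sided exact permutation test is 0.33 for 2 livers against 2 and 0.133 for 4 against 2, so the ratios are given as a description.

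The 7 amino acids were alanine, cysteine, histidine, leucine, arginine, serine and tyrosine. The cysteine pair separated clearly: Cars over Cars2 was 6.51 and 5.51 in Optn-/- livers, 5.54 and 5.97 in wild-type acetaminophen livers, and 2.32 and 2.77 in PBS livers. The tyrosine pair, Yars over Yars2, had ratios of 5.22 and 4.44 in Optn-/- livers, 4.71 and 3.79 in wild-type acetaminophen livers, and 1.30 and 2.42 in PBS livers. The arginine pair, Rars over Rars2, had 9.55 and 7.29 in Optn-/- livers, 7.49 and 6.39 in wild-type acetaminophen livers, and 3.31 and 4.09 in PBS livers. In the cysteine and tyrosine pairs the cytosolic gene rose and the mitochondrial gene was lower, without passing the edgeR threshold. The log2 fold change of Yars2 was -0.83 in Optn-/- livers and -0.66 in wild-type acetaminophen livers against PBS, beside 0.64 and 0.61 for Yars. That of Cars2 was -0.48 and -0.32, beside 0.74 and 0.85 for Cars. In the arginine pair the cytosolic gene was level in FPKM and Rars2 was lower.

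The tryptophan pair, Wars over Wars2, had lower means in treated livers, although wild-type acetaminophen livers overlapped PBS livers, with 5.63 and 5.17 in Optn-/- livers, 5.35 and 6.58 in wild-type acetaminophen livers, and 6.11 and 6.21 in PBS livers. The asparagine pair, Nars over Nars2, had 12.9 and 15.1 in Optn-/- livers, 10.2 and 11.8 in wild-type acetaminophen livers, and 8.26 and 17.4 in PBS livers, so its PBS libraries spanned all treated values. Optn-/- livers exceeded wild-type acetaminophen livers in mean ratio for 7 of 13 amino acids.

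Summed over each class, mitochondrial synthetases came to 28.9 and 29.5 FPKM in Optn-/- livers, 29.0 and 30.2 FPKM in wild-type acetaminophen livers, and 39.7 and 41.7 FPKM in PBS livers. Cytosolic synthetases summed to 165 and 170 FPKM in Optn-/- livers, 156 and 175 FPKM in wild-type acetaminophen livers, and 159 and 171 FPKM in PBS livers, with overlapping groups. The ratio of the sums was 5.72 and 5.75 in Optn-/- livers, 5.38 and 5.80 in wild-type acetaminophen livers, and 3.99 and 4.11 in PBS livers. It did not overlap between treated and PBS livers.

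**Figure D3:**
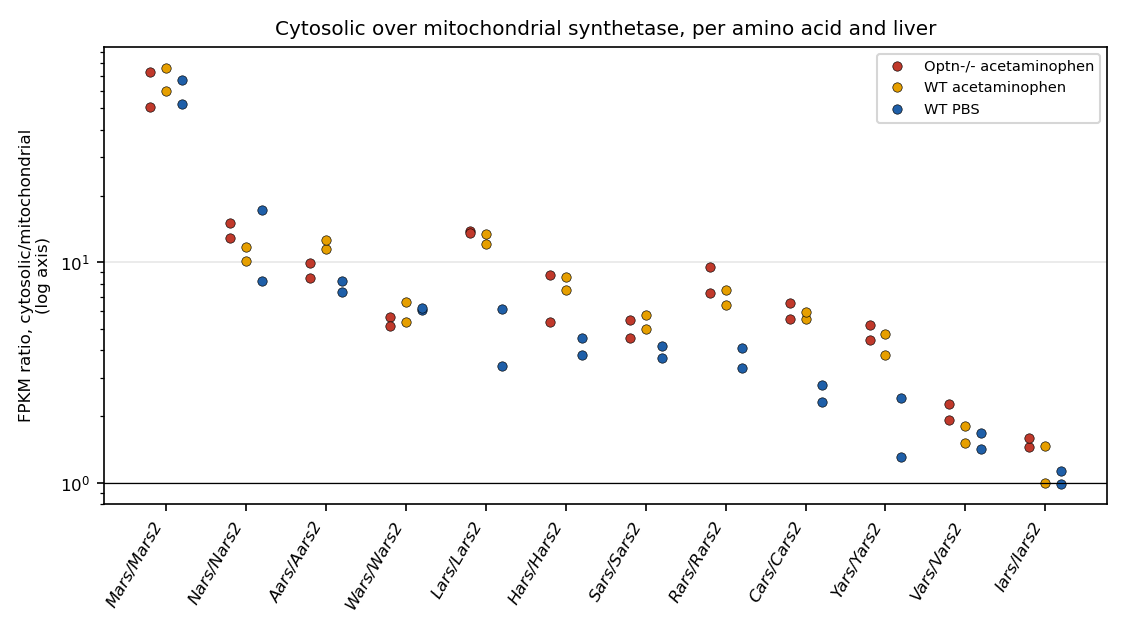
FPKM of the cytosolic gene over that of the mitochondrial gene for 12 of the 13 amino acids, on a log axis; each point is 1 liver, with Optn-/- acetaminophen, wild-type acetaminophen and PBS livers from left to right within a pair. Ratios of the 4 acetaminophen livers lie above both PBS livers for 7 pairs, among them Cars/Cars2 and Yars/Yars2, and overlap them for the other 5 drawn. The share of other gene pairs that separate in this way was not computed.

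The third comparison asked whether loss of Optn altered these genes after acetaminophen. By edgeR's quasi-likelihood test 0 of 41 genes differed in either direction between Optn-/- and wild-type acetaminophen livers, beside 0.0514% of all genes higher and 0.0514% lower. DESeq2 called 0 as well, beside 1.45% of all genes higher and 1.04% lower, and limma called 0, beside 0.18% and 0.0514%. At an unadjusted p under 0.05 there was 1 gene, beside 8.77% of all genes. That gene was Vars, the cytosolic valine enzyme, with 5.0 and 4.47 FPKM in Optn-/- livers against 3.45 and 3.80 FPKM in wild-type acetaminophen livers and 4.14 and 4.33 FPKM in PBS livers (log2 fold change 0.36 ± 0.133, SE, adjusted p = 0.531). Farsa had 2.96 and 3.25 FPKM in Optn-/- livers, against 2.36 and 2.51 FPKM in wild-type acetaminophen livers and 3.63 and 3.82 FPKM in PBS livers (0.32 ± 0.140, adjusted p = 0.600). In both genes the treated groups did not overlap.

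The 3 lowest values belonged to Ears2 (mitochondrial glutamate), Nars2 and Pars2 (proline). Ears2 had 0.693 and 1.01 FPKM in Optn-/- livers, against 1.20 and 1.22 FPKM in wild-type acetaminophen livers and 1.70 and 1.67 FPKM in PBS livers (log2 fold change between treated groups -0.53 ± 0.231, SE, edgeR adjusted p = 0.595). Nars2 had 1.32 and 1.23 FPKM in Optn-/- livers, against 1.56 and 1.72 FPKM in wild-type acetaminophen livers and 1.76 and 1.02 FPKM in PBS livers (-0.39 ± 0.286, adjusted p = 0.741). Pars2 had 0.526 and 0.400 FPKM in Optn-/- livers, against 0.465 and 0.652 FPKM in wild-type acetaminophen livers and 0.158 and 1.11 FPKM in PBS replicates 3 and 6 (-0.29 ± 0.815, adjusted p = 0.945). For Nars2 and Pars2 the PBS libraries differed more than the treated groups did.

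A p that misses the threshold does not show that the genotypes act alike, and the intervals say how large a difference remains possible. The 95% interval of the log2 difference lay within 1 of 0 on both sides for 37 of 41 genes and within 0.5 for 18. For Gars the difference was -0.04 ± 0.114 (SE). The widest interval, that of Pars2, ran from -2.29 to 1.71. Each treated group lies in a different set of libraries by its tissue traces, so genotype and library set cannot be told apart in this comparison.

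Other genes of amino acid supply and translation were counted in the same fits, in which 12.2% of all genes rose and 8.05% fell in Optn-/- livers against PBS, and 8.36% rose and 5.92% fell in wild-type acetaminophen livers against PBS. With library set in the fit these shares were 5.74% and 2.48%, and 4.9% and 2.06%. Of 23 genes of the integrated stress response 15 rose and 2 fell in Optn-/- livers against PBS. In wild-type acetaminophen livers against PBS 15 rose and 0 fell by edgeR, with 0 lower at its unadjusted p under 0.05. There 0 fell by DESeq2, 1 by limma and 2 with total-count scaling. The edgeR median log2 fold changes were 2.05 in Optn-/- livers and 2.45 in wild-type acetaminophen livers. Psat1, an enzyme of serine synthesis, had 5.5 and 5.87 FPKM in Optn-/- livers, 4.23 and 4.75 FPKM in wild-type acetaminophen livers, and 0.219 and 0.297 FPKM in PBS livers. The 2 that fell in Optn-/- livers were Shmt2, a mitochondrial enzyme of serine and glycine metabolism (-0.51 ± 0.116, SE, edgeR adjusted p = 0.0306), and the kinase gene Eif2ak1 (-0.45 ± 0.117, 0.0443). Both were named after their values were seen, and both calls were lost when any 1 library was left out and with library set in the fit (0.165 and 0.179), where 12 genes of the list rose and 0 fell. In wild-type acetaminophen livers against PBS 13 rose and 0 fell with library set in the fit. In neither treated group did a cytosolic synthetase rise by as much as these medians.

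Of 15 amino acid transporters tested, 6 rose in Optn-/- livers and 7 in wild-type acetaminophen livers against PBS, and 0 fell (0 also at an unadjusted p under 0.05 or by DESeq2). The limma fit and the fit with total-count scaling each called 1 lower in Optn-/- livers and 0 in wild-type acetaminophen livers. Slc7a1, a carrier of arginine and lysine, had 2.38 and 1.93 FPKM in Optn-/- livers, 1.21 and 1.29 FPKM in wild-type acetaminophen livers, and 0.0293 and 0.0409 FPKM in PBS livers. Slc3a2, the partner chain of several exchangers, had 27.4 and 25.8 FPKM in Optn-/- livers, 19.6 and 23.3 FPKM in wild-type acetaminophen livers, and 9.74 and 9.53 FPKM in PBS livers. Slc38a2, a carrier of small neutral amino acids, had 32.5 and 36.1 FPKM in Optn-/- livers, 44.3 and 36.0 FPKM in wild-type acetaminophen livers, and 10.9 and 13.4 FPKM in PBS livers. Every treated liver lay above both PBS livers for these 3 genes, and with library set in the fit 6 transporters passed in Optn-/- livers and 7 in wild-type acetaminophen livers.

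Of 13 mitochondrial translation factors and tRNA amidation genes, 3 fell in Optn-/- livers and 1 in wild-type acetaminophen livers against PBS, and 0 rose by edgeR, DESeq2 or limma or at an unadjusted p under 0.05. The number that fell depended on the fit. In Optn-/- livers it was 8 by DESeq2, beside 14% of all genes, 9 by limma, beside 15.8%, 9 with total-count scaling, beside 15.1%, and 0 with library set in the fit (6 lower at an unadjusted p under 0.05). In wild-type acetaminophen livers it was 4 by DESeq2, beside 12.2% of all genes, 3 by limma, beside 12.8%, 5 with total-count scaling, beside 12.8%, and 0 with library set in the fit (3 lower at an unadjusted p under 0.05). All 13 fold changes were below 0 in both comparisons, the highest being -0.13 and -0.17, with medians of -0.53 and -0.43. Gatc, a subunit of the amidotransferase that completes glutamine tRNA in mitochondria after the glutamate enzyme Ears2, had 5.67 and 5.35 FPKM in Optn-/- livers, 5.11 and 5.45 FPKM in wild-type acetaminophen livers, and 11.7 and 12.0 FPKM in PBS livers. It fell by 0.92 in Optn-/- livers and 0.95 in wild-type acetaminophen livers on the log2 scale (edgeR adjusted p = 0.0111 and 0.0139), against 0.0543 and 0.0538 with library set in the fit. The elongation factor genes Gfm1 (-0.53 ± 0.135, adjusted p = 0.0434) and Gfm2 (-0.71 ± 0.142, 0.0210), the second of which acts in ribosome recycling, fell in Optn-/- livers, and both calls were lost with library set in the fit (0.132 and 0.0594). Without 1 library the adjusted p was 0.0192 to 0.0587 for Gatc, 0.0623 to 0.158 for Gfm1 and 0.0312 to 0.101 for Gfm2 in Optn-/- livers, and 0.0272 to 0.0696 for Gatc in wild-type acetaminophen livers.

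Cytosolic elongation factors and the complex scaffold showed 1 fall among 11 genes in each comparison against PBS and 0 rises (2 higher at an unadjusted p under 0.05, 2 by DESeq2 and 0 by limma), a share near that of all genes. The fall was that of Eef2k, the kinase that restrains elongation factor 2, with 0.407 and 0.386 FPKM in Optn-/- livers, 0.508 and 0.630 FPKM in wild-type acetaminophen livers, and 1.64 and 1.76 FPKM in PBS livers. In wild type its call was lost without either PBS library (edgeR adjusted p up to 0.0625). Of 27 genes of tRNA maturation, export and proofreading, 2 rose and 4 fell in Optn-/- livers and 1 rose and 1 fell in wild-type acetaminophen livers. In Optn-/- livers 4 rose and 6 fell by DESeq2, beside 17% and 14% of all genes, 1 rose and 6 fell by limma, beside 9.87% and 15.8%, 1 rose and 6 fell with total-count scaling, and 0 rose and 1 fell with library set in the fit. In wild-type acetaminophen livers 2 rose and 6 fell by DESeq2, beside 14.4% and 12.2% of all genes, 0 rose and 6 fell by limma, beside 5.96% and 12.8%, 0 rose and 7 fell with total-count scaling, and 0 rose and 0 fell with library set in the fit (2 higher and 1 lower at an unadjusted p under 0.05). Pstk, a kinase in the making of selenocysteine tRNA, fell by 1.21 in Optn-/- livers and 0.99 in wild-type acetaminophen livers on the log2 scale (edgeR adjusted p = 0.0124 and 0.0270). With library set in the fit its adjusted p was 0.049 in Optn-/- livers and 0.101 in wild-type acetaminophen livers, and without 1 library it was 0.019 to 0.0601 and 0.0465 to 0.115. Between Optn-/- and wild-type acetaminophen livers 0 genes of the 5 lists passed the edgeR test, beside 0.0514% of all genes in each direction. At an unadjusted p under 0.05 there were 9, beside 8.77% of all genes. DESeq2 called 4 of 15 amino acid transporters (1 higher and 3 lower), beside 1.45% of all genes higher and 1.04% lower. The limma fit called 0 genes of the 5 lists, beside 0.18% and 0.0514%.

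**Figure D4:**
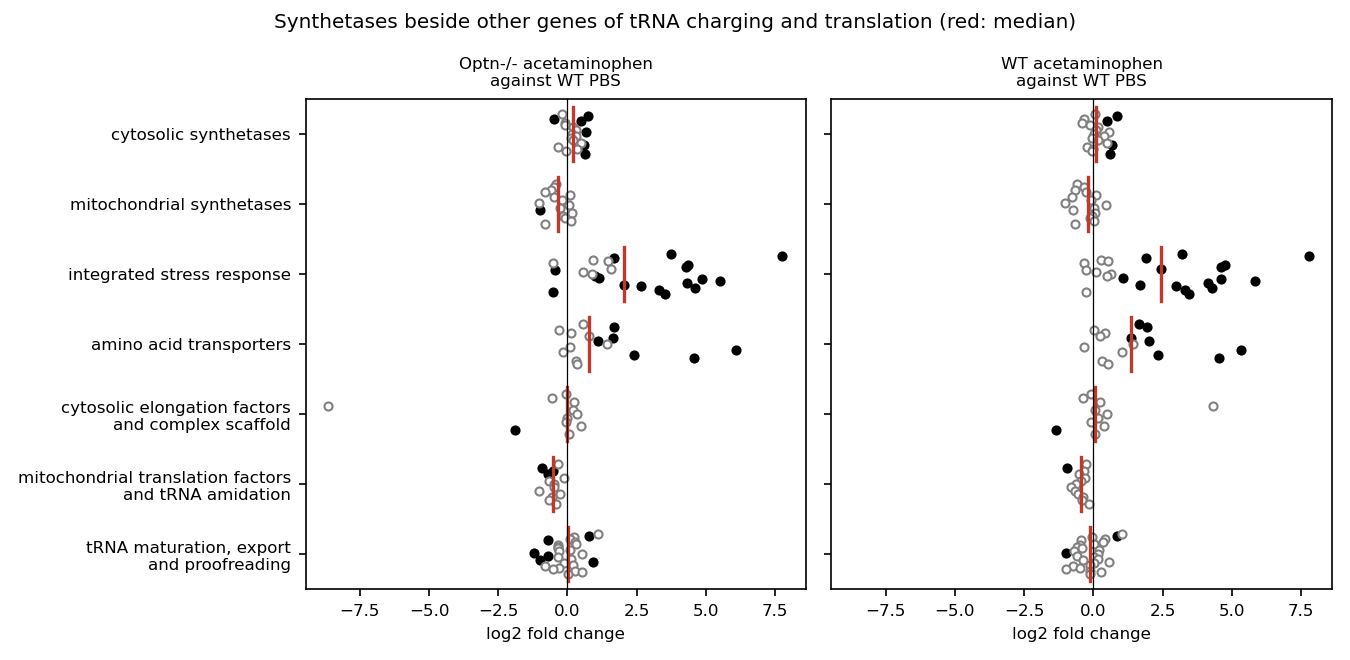
edgeR log2 fold changes against PBS in Optn-/- acetaminophen livers (left) and wild-type acetaminophen livers (right) for the 2 synthetase classes and 5 lists of related genes; each point is 1 gene, filled with an adjusted p under 0.05, and red bars are medians. Medians of the stress response list lie at 2.05 and 2.45, those of the mitochondrial factors at -0.53 and -0.43, and the outlying elongation factor point is Eef1a2, listed at a count of 0 in 3 libraries.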

How the data were processed

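The 42 genes and the gene lists were chosen with earlier results of these data known. The authors deposited 1 table that holds, per the file headers, whole-number counts (unnormalized) and FPKM values for each gene in every library. Bowtie 0.12.2 and the mouse build mm8 are named, per the submitters' processing notes. Coordinates are given as GRCm38, because they match GENCODE M21 for 93.9% of all genes and 34 of the 42. The counting tool and any use of strand were not given in the sources used here.

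Counts of the 6 libraries were fitted as 3 group means with edgeR 4.0.16 (R 4.3.3), TMM scaling and no covariates. The 11677 genes whose mean FPKM reached 0.5 were tested by the quasi-likelihood test at a Benjamini-Hochberg adjusted p under 0.05, after a check on simulated counts. Alternatives were DESeq2 1.42.0, limma 3.58.1 on log2(FPKM + a pseudocount), other scalings and filters, 2-group fits, a library set term and leaving out each library. The common biological coefficient of variation was 0.277. Each edgeR SE was worked back from the test, as the absolute log2 fold change divided by the square root of the F statistic. Intervals of differences were built from these SEs with a t quantile at 5.93 degrees of freedom. The ratio of class sums was chosen after the data had been seen. Replicate pairs differed beyond sampling noise (mean chi-square per gene 114, 141 and 291 in PBS, wild-type acetaminophen and Optn-/- livers). Series text says that replicates are individual animals, and the spread that p-values rest on is that between these mice.

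Values by library were given for genes past the threshold, their counterparts in the other compartment, the 3 highest and 3 lowest fold changes of each comparison and the 3 highest and lowest PBS levels. Other members were given by counts and ranges. Shared sequence was counted as the share of a gene's 50-base words in annotated transcripts that another gene also holds. The set of libraries was defined by sums of muscle and intestinal markers. Its term in a fit rests on the 2 PBS libraries alone, and between treated groups it carries the difference of those libraries. A count of 0 allows up to 3 counts, for counting error alone. A planned comparison of protein sequences was not run. Values of 1 gene are not reported here or drawn by name, while counts, medians and sums over the genes include it.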

Additional observations from a re-analysis of the deposited data

How the results depend on the processing

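In wild type, 2 members rose (Cars, Gars) under total-count scaling, no filter beyond 1 count, limma with a pseudocount of 0.5, 0.1 or 1, and the library set term, and 3 on the 4 libraries compared, against 5. DESeq2 called 7 members higher, against 5. Members that fell numbered 4 with DESeq2, 4 with total-count scaling and 6 with limma at each pseudocount, against 0. Of all genes 14.4% rose and 12.2% fell with DESeq2, and 6.2% and 12.8% with total-count scaling. With limma (pseudocount 0.5) the shares were 5.96% and 12.8%. In Optn-/- livers against PBS, 2 rose under total-count scaling, no filter and each limma fit, 3 on the 4 libraries and 1 (Gars) with the library set term, against 6. Members that fell numbered 7 with DESeq2, 7 with total-count scaling, 5, 6 and 5 with limma (pseudocounts 0.5, 0.1 and 1), 0 with no filter, 1 with a minimum mean of 5 FPKM, 0 on the 4 libraries and 1 (Lars2) with the library set term, against 2. With a library left out, 1 to 3 rose and 0 to 1 fell in wild type, and 1 to 4 rose and 0 to 1 fell in Optn-/- livers against PBS. A lone library left in a group is assumed to vary like the other groups. In Optn-/- livers against PBS DESeq2 called 7 members higher, against 6. Of all genes in that comparison 17% rose and 14% fell with DESeq2, and 9.74% and 15.1% with total-count scaling. With limma (pseudocount 0.5) the shares were 9.87% and 15.8%.

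The cytosolic median in wild type (0.104) was -0.114 with total-count scaling, 0.0486 with no filter, 0.164 at 5 FPKM, -0.103, -0.111 and -0.0941 with limma (0.5, 0.1 and 1), 0.161 with the library set term, and 0.00433 to 0.161 with a library left out. The mitochondrial median (-0.194) was -0.417 with total-count scaling, -0.317, -0.381 and -0.269 with limma, and -0.271 to -0.172 with a library left out. In Optn-/- livers against PBS the cytosolic median (0.208) was 0.0196 with total-count scaling, 0.151 with no filter, 0.341 at 5 FPKM, 0.025, 0.0257 and 0.0241 with limma, and 0.2 to 0.277 with a library left out. The mitochondrial median (-0.342) was -0.539 with total-count scaling, -0.412 and -0.494 with limma (0.5 and 0.1), -0.448 with the library set term, and -0.448 to -0.238 with a library left out. Between treated groups the cytosolic median (0.00428) was -0.106 with the library set term. No mitochondrial gene reached a mean of 5 FPKM, so that setting gave no mitochondrial median. Apart from the scaling shift, the cause of these changes was not tested.

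Over all genes in wild type, 976 rose and 691 fell, against 724 and 1497 with total-count scaling and 1684 and 1423 with DESeq2. In Optn-/- livers against PBS the numbers were 1426 and 940, against 1137 and 1768 with total-count scaling, which moved the median by -0.19, and 1987 and 1633 with DESeq2. Between treated groups they were 6 and 6, against 169 and 122 with DESeq2. No value changed sign with a call involved. Of the single-gene values under alternatives, 253 kept their side of the threshold, 107 were no longer past it and 10 came past it.

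No paired analysis was possible because the groups compared share at most 1 replicate number. With 2 mice per group and 1 library set per treated group, small differences between genotypes were not detectable here.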
